A study of Homo sapiens with 8 samples.

Results

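The secreted matrix proteoglycans and glycoproteins described here are lumican (LUM), decorin (DCN), biglycan (BGN), the testicans SPOCK2 and SPOCK1, fibulin-3 (EFEMP1) and fibulin-1 (FBLN1). They were measured in 22Rv1, a human prostate carcinoma line, and in cells derived from it in animals. These 7 genes were chosen from the measured values of this series: LUM, SPOCK2 and EFEMP1 for their large differences between tumour-derived and parental cells, and DCN, BGN, SPOCK1 and FBLN1 listed with them as genes of the same families. Their members are all probes whose platform annotation gives one of the 7 symbols, which are 15 of the 47320 probes on the array; the 7 genes stand among 20046 named ones. Of these, 10 were above background on at least 2 arrays, with at least 1 probe for each gene.

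The arrays fell into 4 groups of 2, all labelled as a prostate cancer cell line: the metastatic derivative 22Rv1-M3-2, the metastatic derivative 22Rv1-M3-1, the primary tumour derivative 22Rv1-PT, and the luciferase-named parental line 22Rv1-Luc2. M3-2, M3-1 and PT came from propagation of 22Rv1 in living animals, and all are compared with the parental cells. The host, the site of each tumour, the number of animals, and any removal of host cells before RNA extraction are not stated in the labels. The labels do not say whether the 2 arrays of a group stand for independent cultures or tumours, so the p-values cover only array-to-array spread, possibly a technical one. Each metastatic group is a single derivative.

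Lumican, decorin and biglycan are small leucine-rich proteoglycans, secreted proteins that bind collagen and help set the spacing of its fibrils. Decorin and biglycan also bind growth factors of the TGF-beta family. The testicans are proteoglycans of the SPARC family that carry heparan or chondroitin sulphate chains, and the fibulins are glycoproteins with calcium-binding EGF-like repeats found in basement membranes and elastic fibres. In the prostate, lumican, decorin and biglycan are best known as products of stromal cells, and 22Rv1 is an epithelial line.

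RefSeq promoter windows (GRCh38.p14) were available for 3 of the 7 genes. Those of SPOCK2, which has 2 annotated starts, and BGN are shown because these genes alone among the members differed between the metastatic derivatives by the test given below. Each window runs from 250 bases before to 50 bases after the start, 5′ to 3′ on the gene's strand. Capitals mark GC boxes (GGGCGG on either strand).
SPOCK2, chr10:72088983-72089282, minus strand: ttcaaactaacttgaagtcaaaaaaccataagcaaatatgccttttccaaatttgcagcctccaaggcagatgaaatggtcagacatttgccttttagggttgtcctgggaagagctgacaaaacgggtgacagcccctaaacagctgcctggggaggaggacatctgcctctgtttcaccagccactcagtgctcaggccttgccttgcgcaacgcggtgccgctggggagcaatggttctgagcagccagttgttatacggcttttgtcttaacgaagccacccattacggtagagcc
SPOCK2, chr10:72088502-72088801, minus strand: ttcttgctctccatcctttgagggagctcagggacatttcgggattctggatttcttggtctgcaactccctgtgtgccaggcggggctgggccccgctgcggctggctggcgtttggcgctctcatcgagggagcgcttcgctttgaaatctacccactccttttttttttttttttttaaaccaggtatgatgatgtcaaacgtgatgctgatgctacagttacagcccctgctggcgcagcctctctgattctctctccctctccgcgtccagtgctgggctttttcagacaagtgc
BGN, chrX:153494730-153495029, plus strand: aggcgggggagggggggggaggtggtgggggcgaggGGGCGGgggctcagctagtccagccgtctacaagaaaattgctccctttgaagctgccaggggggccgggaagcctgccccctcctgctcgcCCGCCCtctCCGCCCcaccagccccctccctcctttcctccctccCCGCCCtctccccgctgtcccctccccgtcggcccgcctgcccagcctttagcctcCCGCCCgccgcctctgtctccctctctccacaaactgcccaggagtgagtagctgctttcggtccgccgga
The BGN window held 5 GC boxes, and both SPOCK2 windows held 0. A GC box occurred in 45.0% of the 35116 promoter windows searched. The BGN window was 71.7% G and C with 19 CpG dinucleotides. Those of SPOCK2 were 50.7% and 53.7% G and C, with 8 and 13 CpG, against a median of 58.7% and 14 over all windows. None of the 3 windows held a TATA box (TATAAA, in 11.5% of windows), a CCAAT box (CCAAT, 34.6%), an AP-1 site (TGANTCA, 7.71%) or a steroid receptor half-site (TGTTCT, 14.8%), searched on both strands. Only GC boxes were found, so no match overlapped another motif. These matches describe letters only.

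Values are log2 intensities as the authors deposited them. A probe counts as above background where it exceeds 6.55, a level set from the mode of all values, and values at or below it have no order. Arrays of a group correlated across probes above background at 0.993 in M3-2, 0.997 in M3-1, 0.994 in PT and 0.987 in parental cells. Markers of the luminal prostate cell were present: 8 of 9 on the array were above background, while KLK3, which encodes prostate-specific antigen, was at or below background on all 8 arrays. Of the 8, 3 were called higher than in parental cells in M3-2, 2 in M3-1 and 1 in PT, and 0 were called lower. Over all genes, 11.1% were called in M3-2, 8.92% in M3-1 and 5.98% in PT, in either direction. The keratin gene KRT18 averaged 9.27 in M3-2, 8.87 in M3-1, 9.02 in PT and 8.16 in parental cells. In the same groups KRT8 averaged 11.26, 10.54, 10.67 and 10.26. FOLH1, encoding prostate-specific membrane antigen, averaged 10.76, 10.13, 10.03 and 9.29. EPCAM averaged 12.73, 12.55, 12.59 and 12.34, and HOXB13 9.87, 9.97, 9.81 and 9.48. The rest took other courses: FOXA1 averaged 12.86, 12.87, 13.06 and 13.10, STEAP2 9.78, 10.05, 9.54 and 9.91, and KLK2 7.26, 6.85, 7.42 and 7.25. The part of the luminal markers in the members' differences was not tested. Differences were tested with limma on all 22274 probes above background, and a probe is called where its Benjamini-Hochberg adjusted p is below 0.05.

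**Figure D1:**
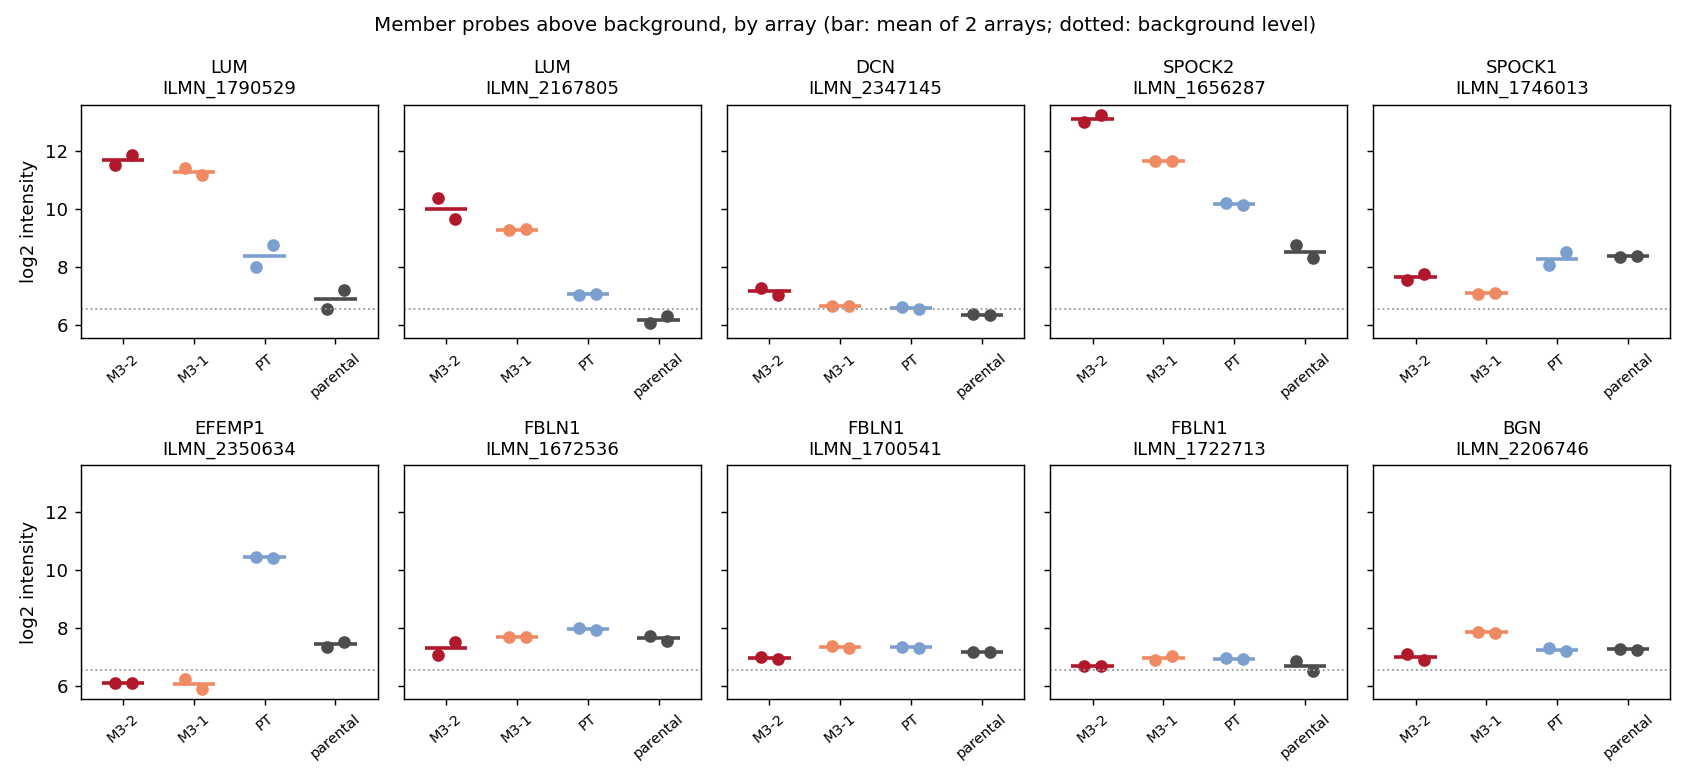
Log2 intensity of the 10 member probes above background in each of 8 arrays (points), grouped as M3-2, M3-1, PT and parental cells, with a bar at the mean of the 2 arrays and a dotted line at the background level of 6.55. Both LUM probes and SPOCK2 stand highest in the metastatic derivatives, EFEMP1 stands highest in PT at 10.4, and no FBLN1 probe spans more than 0.93.

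Lumican was the small leucine-rich proteoglycan with the widest range. The brighter LUM probe (ILMN_1790529) read 11.52 and 11.85 in M3-2, 11.41 and 11.17 in M3-1, 8.01 and 8.76 in PT, and 6.55 and 7.21 in parental cells. Its 4 metastatic arrays lay above both PT arrays, which lay above both parental arrays, while the lower parental array was barely over background. The second LUM probe (ILMN_2167805) read 10.36 and 9.67 in M3-2, 9.26 and 9.31 in M3-1, 7.04 and 7.08 in PT, and 6.05 and 6.30 in parental cells. Both of those parental readings were below background. The order of the groups was the same on both probes.

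In M3-2 the brighter LUM probe was higher than in parental cells by a log2 difference of 4.80 (SE 0.25), which is 28.0-fold. In M3-1 the difference was 4.41 (SE 0.25), or 21.2-fold, and in PT it was 1.5 (SE 0.25), or 2.84-fold. On the second probe the folds were at least 11 in M3-2, at least 6.66 in M3-1 and at least 1.42 in PT, each computed against the background level. Set against PT, the brighter probe was higher by 3.30 (SE 0.25) in M3-2 and by 2.90 (SE 0.25) in M3-1. These differences are the kind that chose the gene and are given as a description.

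Decorin, encoded next to lumican on chromosome 12, stayed close to background. DCN had 4 probes, of which 1 (ILMN_2347145) was above background on at least 2 arrays. It read 7.27 and 7.05 in M3-2, 6.67 and 6.64 in M3-1, 6.61 and 6.55 in PT, and 6.37 and 6.34 in parental cells. One PT array and both parental arrays were at or below background. This probe was highest in M3-2, while the M3-1 and PT means differed by only 0.08. Over the arrays it ranged by 0.93, against 5.3 for the brighter LUM probe. In M3-2 it was at least 1.52-fold higher than in parental cells, which were at background, and the log2 difference was 0.80 (SE 0.12). The other 3 DCN probes never exceeded 6.61, and no more than 1 array of each was above background, so the difference is seen on 1 probe of 4.

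Biglycan took another course. Its probe (ILMN_2206746) read 7.11 and 6.89 in M3-2, 7.86 and 7.83 in M3-1, 7.31 and 7.18 in PT, and 7.27 and 7.25 in parental cells. Both M3-1 arrays were above the other 6 arrays, and PT and parental arrays overlapped. Relative to parental cells the log2 difference was -0.26 (SE 0.12) in M3-2, 0.59 (SE 0.12) in M3-1 and -0.01 (SE 0.12) in PT.

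The testicans SPOCK2 and SPOCK1 moved in opposite directions in the metastatic derivatives. SPOCK2 (ILMN_1656287) read 12.99 and 13.23 in M3-2, 11.64 and 11.65 in M3-1, 10.20 and 10.13 in PT, and 8.76 and 8.30 in parental cells. No 2 groups overlapped, and the 4 group means were about evenly spaced. The log2 difference from parental cells was 4.58 (SE 0.16) in M3-2, 3.11 (SE 0.16) in M3-1 and 1.63 (SE 0.16) in PT, corresponding to 23.8-fold, 8.64-fold and 3.10-fold. From PT it was 2.94 (SE 0.16) in M3-2 and 1.48 (SE 0.16) in M3-1.

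SPOCK1 (ILMN_1746013), the other testican, read 7.54 and 7.74 in M3-2, 7.07 and 7.11 in M3-1, 8.06 and 8.52 in PT, and 8.35 and 8.38 in parental cells. PT and parental arrays overlapped, and all 4 metastatic arrays lay below them. Its log2 difference from parental cells was -0.72 (SE 0.15) in M3-2, -1.27 (SE 0.15) in M3-1 and -0.07 (SE 0.15) in PT.

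Fibulin-3 was high in the primary tumour derivative alone of the 4 groups. The EFEMP1 probe (ILMN_2350634) read 6.08 and 6.10 in M3-2, 6.22 and 5.90 in M3-1, 10.44 and 10.41 in PT, and 7.34 and 7.51 in parental cells. It was not above background on any metastatic array, and both PT arrays were above the other 6 arrays. Compared with parental cells, EFEMP1 was at least 1.83-fold lower in each metastatic derivative and 8.0-fold higher in PT, a log2 difference of 3.0 (SE 0.14). Compared with PT it was at least 14.7-fold lower in each metastatic derivative.

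Fibulin-1 had a narrower range than fibulin-3. FBLN1 had 5 probes annotated to 4 transcript records, and 3 of them were above background. The brightest (ILMN_1672536) read 7.07 and 7.51 in M3-2, 7.68 and 7.68 in M3-1, 8.0 and 7.90 in PT, and 7.72 and 7.54 in parental cells. M3-2 arrays were the lowest and PT arrays the highest, and M3-1 overlapped parental cells. Over the 3 probes the log2 difference from parental cells ran from -0.34 to -0.0080 in M3-2, from 0.05 to 0.27 in M3-1 and from 0.16 to 0.32 in PT. M3-2 lay below PT on all 3 probes, with log2 differences of -0.66 (SE 0.15) on the brightest and -0.36 (SE 0.12) and -0.25 (SE 0.14) on the others. The remaining 2 probes stayed at or below 6.22 on every array.

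**Figure D2:**
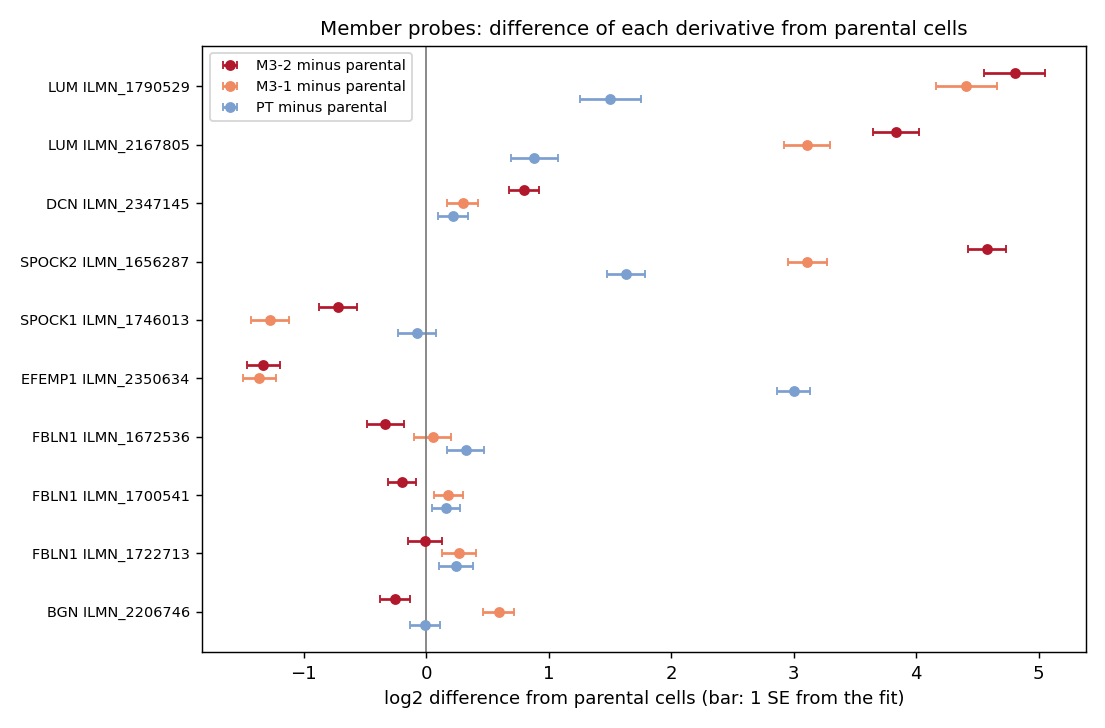
Log2 difference of M3-2, M3-1 and PT from parental cells (horizontal axis) for the 10 member probes above background, each point the difference of 2-array means with a bar of 1 SE from the limma fit. LUM and SPOCK2 are higher in all 3 derivatives, EFEMP1 is 3.0 higher in PT and lower in both metastatic derivatives, and SPOCK1 is lower in the metastatic derivatives only.

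Counted by the limma call, 6 of the 10 tested member probes differed between M3-2 and parental cells, 4 higher (both LUM probes, DCN and SPOCK2) and 2 lower (SPOCK1 and EFEMP1). Over all probes 9.04% were called in that comparison, 4.42% higher and 4.62% lower. For M3-1 there were also 6, with BGN in place of DCN among the 4 higher, against 7.22% of all probes (3.26% higher, 3.96% lower). For PT there were 4, all higher (both LUM probes, SPOCK2 and EFEMP1), against 5.02% of all probes (2.46% higher, 2.56% lower). Set against PT, 7 were called in M3-2 (4 higher, and SPOCK1, EFEMP1 and the brightest FBLN1 probe lower), where 6.42% of all probes were called (3.15% higher, 3.27% lower). In M3-1 there were 6 against PT, 4 higher and 2 lower, where 5.98% of all probes were called (2.84% higher, 3.14% lower). The members were chosen on such comparisons, which also share arrays, so nothing is read from the counts. Several of these calls ended when 1 array was left out. Against parental cells these were BGN in M3-1 (without either M3-1 array), SPOCK1 in M3-2 (without M3-2 replicate 1) and the second LUM probe in PT (without either PT array). Against PT they were, in M3-2, FBLN1 (without M3-2 replicate 1 or either array of M3-1 or PT), SPOCK1 (without either array of M3-2 or M3-1, or PT replicate 2) and DCN (without M3-2 replicate 1 or either PT array), and, in M3-1, BGN (without either array of M3-1 or PT).

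The comparison of M3-2 with M3-1 asks whether the metastatic derivatives differ. It is not itself a difference from parental cells. Whether it also entered the choice of LUM, SPOCK2 and EFEMP1 is not known. The arrays are the same, and a choice for high values in M3-2 can favour M3-2 over M3-1. The test is therefore not independent of the choice. SPOCK2 and BGN passed the limma test, in opposite directions. SPOCK2 was 2.76-fold higher in M3-2 than in M3-1, a log2 difference of 1.46 (SE 0.16, adjusted p = 0.000351), and both M3-2 arrays exceeded both M3-1 arrays by at least 1.34. BGN was 1.80-fold lower in M3-2. Its log2 difference was -0.85 (SE 0.12, adjusted p = 0.00392), with a gap of 0.72 between the groups' arrays. Thus 2 of 10 tested member probes were called, 1 higher and 1 lower, where 1.56% of all probes were called (0.898% higher, 0.660% lower). Because the members were chosen on these arrays, nothing is read from this count either.

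The SPOCK2 call held in all 16 alternative settings, which are refits of the same arrays, with log2 differences from 1.34 to 1.59. The BGN call ended without M3-1 replicate 1 (adjusted p = 0.0883) and without M3-1 replicate 2 (0.0784), where the lone array is assumed to vary like the other groups. Among the 8 probes that were not called, the second LUM probe differed by 0.73 (SE 0.19, adjusted p = 0.105), DCN by 0.50 (SE 0.12, 0.0791) and SPOCK1 by 0.55 (SE 0.15, 0.147). The brighter LUM probe differed by 0.40 (SE 0.25, adjusted p = 0.732). The 3 FBLN1 probes were all on the lower side, between -0.39 and -0.27, with adjusted p from 0.199 to 0.637. EFEMP1 was below background in both derivatives, so the values have no order there.

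**Figure D3:**
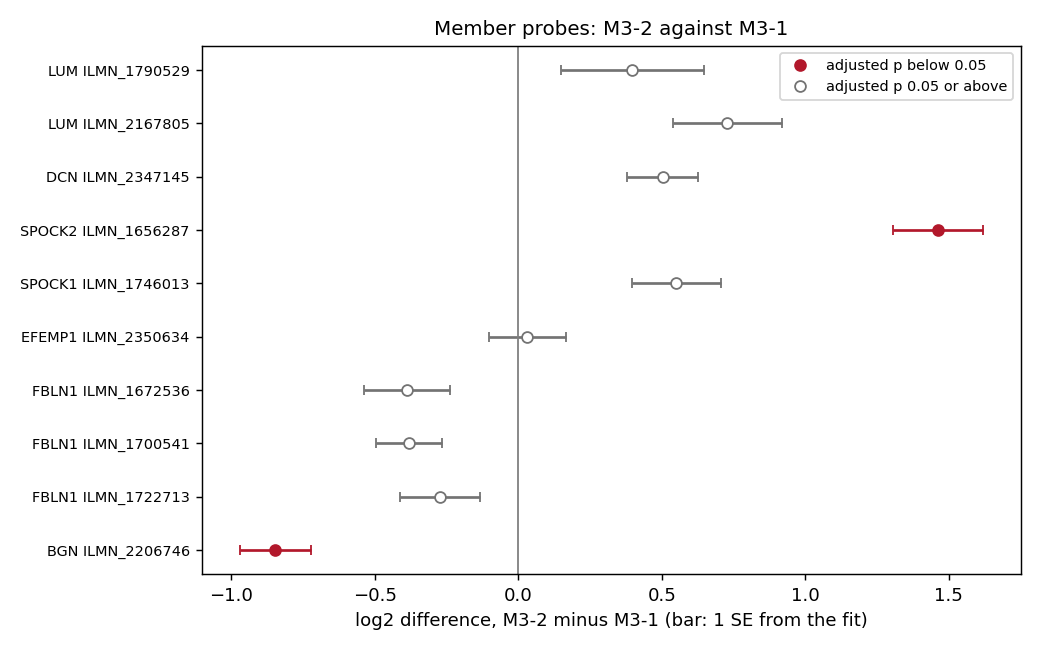
Log2 difference of M3-2 minus M3-1 (horizontal axis) for the 10 member probes above background, with bars of 1 SE from the limma fit. Filled points mark the probes with an adjusted p below 0.05, which are SPOCK2 at 1.46 and BGN at -0.85.

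Markers of stromal cells were examined because such cells make several of these proteins. The probes are annotated to human genes, and the host is not stated in the labels. How they read RNA of host cells was not tested. Of 12 fibroblast and smooth muscle markers, 9 were at or below background on all 8 arrays, among them the collagen genes COL1A2 and COL3A1, the receptor genes PDGFRA and PDGFRB, THY1 and FAP. The 12 averaged 6.47 in M3-2, 6.53 in M3-1, 6.50 in PT and 6.45 in parental cells, though values of the 9 have no order. COL1A1, ACTA2 and TAGLN were above background. Of these 3, 1 was called lower in M3-2 than in M3-1, where 2.06% of all genes were called. Against parental cells 1 was called higher and 1 lower in M3-2, and 0 in M3-1 and PT. Over all genes 11.1% were called in M3-2, 8.92% in M3-1 and 5.98% in PT. COL1A1 lay between 6.73 and 7.05 on all arrays, while TAGLN, an actin-binding protein gene, averaged 8.63 in M3-2, 8.16 in M3-1, 8.13 in PT and 7.88 in parental cells. ACTA2, smooth muscle actin, averaged 8.04, 8.68, 8.29 and 8.55 in the same groups. The part of TAGLN-expressing cells in the LUM and SPOCK2 differences was not tested. In bulk RNA, fewer cells of a type and less RNA per cell cannot be told apart. Of 8 endothelial markers 7 were at or below background throughout, the exception being ESAM at no more than 6.67. Of 7 leukocyte markers on the array 4 were above background. These were CD68, between 10.11 and 10.75, and CD14, AIF1 and LYZ, at no more than 7.18. Among 4 adipocyte markers only LEP was, between 10.15 and 11.07. Which cells gave these signals was not tested.

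Other matrix genes showed no shared direction. Lists of 166 further matrix genes held 91 genes above background. Between M3-2 and M3-1, 2 of these 91 were called, against 2.06% of all genes. EMILIN2, an elastic fibre glycoprotein gene, was at least 1.40-fold lower in M3-2, where it was not above background (adjusted p = 0.00341, from 0.000358 to 0.0791 over the alternatives). TSKU, which encodes the small leucine-rich protein tsukushi, was 1.51-fold higher (adjusted p = 0.0497). The TSKU call ended in 8 of 16 alternative settings, with adjusted p up to 0.525. The count ran from 0 to 7 over the fits that left out 1 array, being 0 without either M3-1 array, 1 without either array of M3-2 or PT, and 7 without either parental array.

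Against parental cells, 12 of the 91 were called in M3-2 (13.2%, against 11.1% of all genes), 16 in M3-1 (17.6%, against 8.92%) and 7 in PT (7.69%, against 5.98%). The higher and lower calls numbered 6 and 6 in M3-2, 7 and 9 in M3-1, and 3 and 4 in PT. The median log2 difference of the 91 was -0.0015 in M3-2, 0.011 in M3-1 and 0.025 in PT, where all genes had -0.0045, 0.0039 and 0.0044. Leaving out M3-1 replicate 1 gave a count of 3 in M3-1, and leaving out replicate 2 gave 6. The PT count was 3 without either PT array and 13 without parental replicate 1, and the M3-2 count was 18 in the largest of these fits.

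The closest relatives of the members were mostly at or below background. Of 14 other small leucine-rich proteoglycans 3 were above background, and of 6 SPARC and testican relatives only SMOC1 was. SMOC1, a calcium-binding matrix protein gene, was called higher in PT than in parental cells, by 0.74 (SE 0.14, adjusted p = 0.0104), and was not called in the metastatic derivatives. That call ended without either PT array and in a fit of PT and parental arrays alone (highest adjusted p = 0.108). TSKU fell in both metastatic derivatives relative to parental cells, by 0.71 (SE 0.13, adjusted p = 0.00441) in M3-2 and by 1.30 (SE 0.13, adjusted p = 5.00e-05) in M3-1. Among 17 fibulin and elastic fibre genes 10 were above background, of which FBN2, encoding fibrillin-2, was called higher in M3-2 (0.64, SE 0.13) and M3-1 (0.62, SE 0.13). In M3-1 EMILIN2 was also called higher, at least 1.40-fold over parental cells, where it was below background. LTBP3, encoding a latent TGF-beta binding protein, was called lower there (-0.68, SE 0.15). The FBN2 calls ended without M3-2 replicate 2 and without M3-1 replicate 1, and those of EMILIN2 and LTBP3 ended without either M3-1 array, LTBP3 also without parental replicate 1.

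Among the other matrix glycoproteins 9 of 26 genes were above background. MGP, an inhibitor of calcification, averaged 8.38 in M3-2, 8.11 in M3-1, 7.78 in PT and 6.89 in parental cells, and was called higher in all 3 derivatives. Tenascin C (TNC) averaged 8.09 in M3-2, 8.37 in M3-1, 8.33 in PT and 9.23 in parental cells, and was called lower in all 3. CCN3, a matricellular protein gene, was at least 2.05-fold lower in M3-2, 1.74-fold lower in M3-1 and 2.03-fold lower in PT. The highest adjusted p among these 9 calls was 0.0382, that of MGP in PT. This call ended in 8 of 16 alternative settings, among them array weights and leaving out either PT array (adjusted p up to 0.274), and the MGP call in M3-1 ended without M3-1 replicate 1.

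Of 13 measured core proteins of other proteoglycans, 4 were called in M3-1 (1 higher, 3 lower), 1 in M3-2 and 1 in PT. VCAN, which encodes the large chondroitin sulphate proteoglycan versican, was lower by the test in all 3 derivatives, with log2 differences of -1.23 (SE 0.13) in M3-2, -0.70 (SE 0.13) in M3-1 and -0.53 (SE 0.13, adjusted p = 0.0399) in PT. Syndecan-1 (SDC1) was 1.72-fold higher and syndecan-4 (SDC4) 1.81-fold lower in M3-1. The VCAN call in PT ended in 9 of 16 alternative settings (adjusted p up to 0.274), and the calls of VCAN, SDC1 and SDC4 in M3-1 ended without either M3-1 array. Of 29 measured genes of glycosaminoglycan synthesis, 1 was called in each comparison with parental cells: UST, a uronyl sulphotransferase, at least 1.14-fold lower in M3-2, EXT2, a heparan sulphate polymerase, 1.36-fold higher in M3-1, and CHST15, a chondroitin sulphotransferase, 2.12-fold higher in PT. The EXT2 call (adjusted p = 0.0409) ended in 11 of 16 alternative settings, with adjusted p up to 0.281, and the UST call ended without either M3-2 array.

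Collagen and basement membrane genes followed no single course. Of 15 measured genes of fibrillar collagen and its processing, COL2A1 and P4HA2 were called higher in M3-2. COL2A1 was at least 1.43-fold higher than in parental cells, where it was below background, and P4HA2 differed by 0.53 (SE 0.13). COL5A2 was called lower in M3-1 (-0.72, SE 0.13). The P4HA2 call ended in 6 of 16 settings, that of COL2A1 in 3 of 15 including without M3-2 replicate 1, and that of COL5A2 without either M3-1 array. Of 11 measured basement membrane genes, COL4A2 and the laminin gene LAMB3 were called higher in both metastatic derivatives. The laminin gene LAMC3 was called lower in M3-1, where it was below background, by at least 1.15-fold. LAMB3 differed by 0.94 (SE 0.12) in M3-2 and 0.47 (SE 0.12) in M3-1, and COL4A2 by 0.77 (SE 0.14) and 0.71 (SE 0.14). In M3-1 the LAMB3 call (adjusted p = 0.0352) ended in 7 of 15 settings and the LAMC3 call (0.0348) in 8 of 15, each also without either M3-1 array, and the COL4A2 call ended without M3-1 replicate 1.

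Profiles most like those of the leading members were found by the root mean square (RMS) difference of log2 values over the 8 arrays, each probe taken relative to its own mean. For SPOCK2, whose own RMS deviation was 1.71, the nearest named gene above background outside the members was LGALS4, a galectin gene of gut epithelium, at 0.24. It averaged 12.28 in M3-2, 11.08 in M3-1, 9.03 in PT and 7.55 in parental cells. P2RY1 at 0.56, NQO1 at 0.69, WIF1 at 0.70 and PLA2G4C at 0.70 followed. For LUM, with an RMS deviation of 2.02, LGALS4 was again nearest at 0.44, before P2RY1 at 0.70, NQO1 at 0.76, KCNJ8 at 0.92 and PLA2G4C at 0.93. EFEMP1, with an RMS deviation of 1.78, had RASL11B at 0.70, FOXA3 at 0.80, IRX4 at 0.85, BASP1 at 0.98 and CPLX3 at 1.00 nearest, all highest in PT. The 8 arrays form 4 groups of 2, so such likeness rests on 4 group levels.

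**Figure D4:**
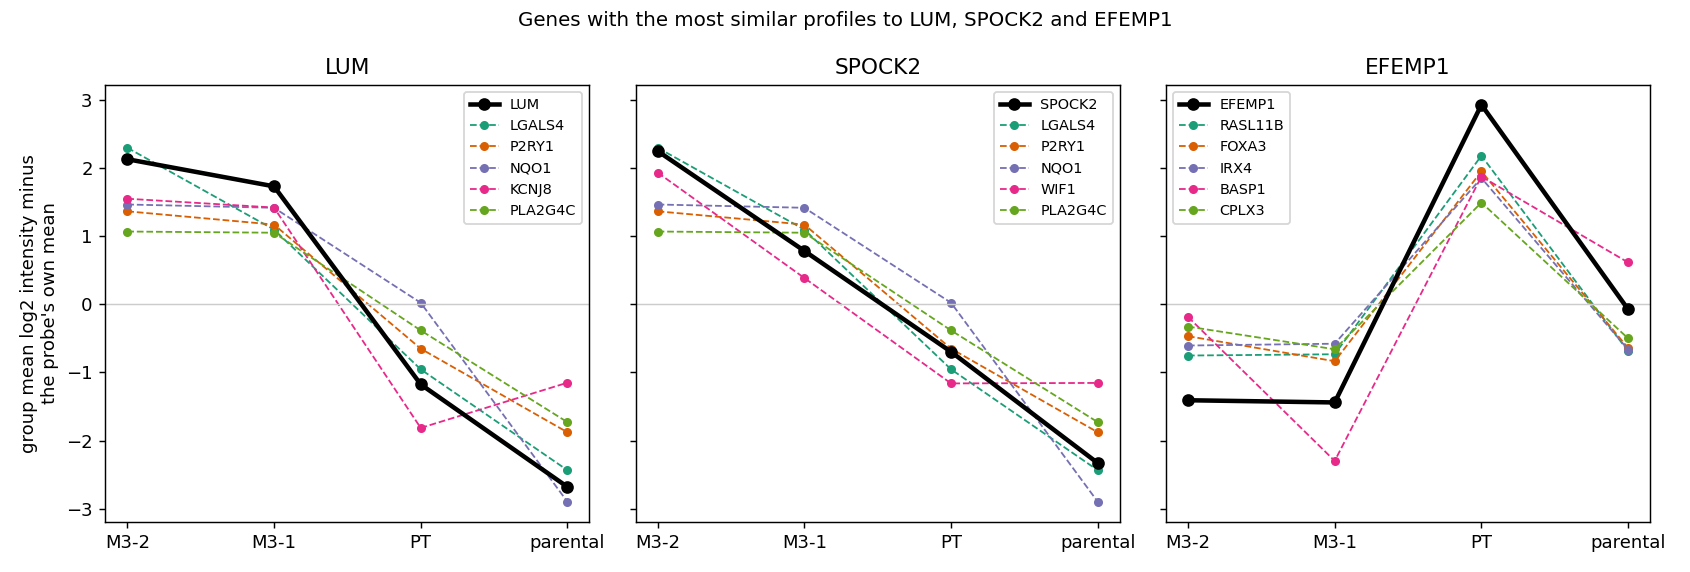
Group mean log2 intensity of LUM, SPOCK2 and EFEMP1 (black) and of the 5 genes with the smallest RMS difference from each (coloured), every line relative to its own mean over the groups M3-2, M3-1, PT and parental cells. LGALS4 follows SPOCK2 most closely, and the genes near EFEMP1 peak in PT.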

How the data were processed

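Total RNA of 8 samples was hybridised as biotin-labelled cRNA to Illumina bead arrays in 1 colour, as the labels' protocols say. The authors deposited log2 intensities for 47320 probes. The software, background correction and normalization behind them are not stated in the labels or the file header. The 8 columns share one distribution to within 0.012 at any rank, as after quantile normalization, and start at 5.32, so folds of dim genes are understated. A second deposited table was not used, because no label matches the running numbers that head its 16 columns of per-sample values. The detection p-values it holds were therefore not used either.

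Background was centred on the mode of the intensities, 6.12. Values under the mode gave its SD, 0.184. The level of 6.55 is exceeded by a share of 0.01 of such values. About 42.9% of probes lay above it on each array, and 22274 did so on at least 2 arrays. Gene symbols came from the GEO platform annotation. It gave 1 symbol to 30112 probes, several to 8 and none to 17200. For the lists, the brightest probe above background stood for its gene (12244 genes).

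Group means were fitted to all 8 arrays with limma 3.58.1 in R 4.3.3 (lmFit, eBayes; 4 residual degrees of freedom and 8.01 from the prior), with Benjamini-Hochberg adjustment over the 22274 probes. The fit was tested on simulated data with independent noise on each array, which says nothing about arrays whose deviations are correlated. Where every array of a group was at or below 6.55, a fold is "at least", computed against 6.55. The number of arrays, 2 a group, limits the precision. Members and lists were chosen with earlier results of these data known. Besides all member probes, the text names up to 3 called genes with the largest difference per list and comparison. It also names the 5 nearest profiles of LUM, SPOCK2 and EFEMP1, outside provisional symbols, and up to 3 markers per marker list. Further fibroblast and luminal markers, and the bone-forming, leukocyte and adipocyte markers, were named after their values were seen. Alternatives were no filter, a mean intensity above 7, 1 row per gene, only the groups compared, array weights, trended robust moderation, median centring, a replicate block and leaving out each array. Deviations of same-numbered arrays correlated at 0.505 for PT and parental cells, 0.180 for M3-2 and PT and 0.167 for M3-2 and parental cells, but from -0.157 to -0.016 for the pairs with M3-1. The numbers were therefore not taken to pair the samples over the series, and pairing among M3-2, PT and parental arrays is not settled. Promoter windows are from RefSeq.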

Additional observations from a re-analysis of the deposited data

Results flagged for a closer look

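The metastatic derivatives, which share the comparison with parental cells, differed from each other in 2 member genes by the limma test of that difference. That test uses the same arrays on which members were chosen. SPOCK2 was higher in M3-2 than in M3-1, with a log2 difference of 1.46 (4.58 from parental cells in M3-2, 3.11 in M3-1). BGN was lower in M3-2, with a log2 difference of -0.85 (-0.26 from parental cells in M3-2, 0.59 in M3-1).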

How the results depend on the processing

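Of 31 member probe differences called over 6 comparisons, 23 were called under every alternative run, 8 lost the call under at least 1, and 0 reversed. Apart from SPOCK2 and BGN between M3-2 and M3-1, these are differences of the kind on which the members were chosen. All 31, those of SPOCK2 and BGN included, were refitted on the same arrays, so the counts say nothing about stability. The member counts against parental cells stayed within 1.5 times of the main count (5 to 6 in M3-2, 5 to 6 in M3-1, 3 to 4 in PT). Between M3-2 and M3-1 the member count was 5 with array weights and 1 to 4 when single arrays were left out: 1 without either M3-1 array and 4 without either parental array. The second LUM probe passed with array weights (adjusted p = 0.0158), a replicate block (0.0485), and without M3-2 replicate 2 (0.0117) or either parental array (0.0416). DCN passed there with array weights (0.0223), trended robust moderation (0.0332) and without either parental array (0.0379), and SPOCK1 with only the groups compared (0.0318) and array weights (0.0453). The uncalled EFEMP1 difference there, below background, changed sign to -0.13 without M3-1 replicate 2 (0.19 without replicate 1). The count of matrix list genes between M3-2 and M3-1 was 0 above a mean intensity of 7, 6 with only the groups compared, 7 with array weights, 1 with trended robust moderation, 5 with a replicate block, and 0 to 7 when single arrays were left out. Against parental cells it was 10 in M3-1 and 7 in M3-2 above a mean intensity of 7, 3 in PT with only the groups compared, and, without single arrays, 3 to 16 in M3-1, 9 to 18 in M3-2 and 3 to 13 in PT. A stricter filter tests fewer genes by construction (59 of 91); the other causes were not tested. The replicate block changed no other member call. Probes near 6.55 carry little signal over background.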

Other observations

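Genes up to 3 places from each member in RefSeq order were looked up, outside the naming rule, and a part of them is given here. On chromosome 12 LUM lies between KERA and DCN, with EPYC beyond KERA and BTG1 beyond DCN. DCN ends at base 91182817 and BTG1 starts at base 92140278. KERA and EPYC, both small leucine-rich proteoglycans, stayed at or near background on all arrays, at no more than 6.62 and 6.10. BTG1, an antiproliferative gene, averaged 13.17 in M3-2, 12.43 in M3-1, 12.71 in PT and 12.12 in parental cells, and differed between M3-2 and M3-1 by the limma test (adjusted p = 0.0160). Near SPOCK2, VSIR stayed below background at no more than 6.11, PSAP lay between 12.63 and 13.09, and CHST3 lay between 7.30 and 7.90. ANAPC16 averaged 9.70 in M3-2, 9.23 in M3-1, 8.86 in PT and 8.67 in parental cells. DDIT4 averaged 10.97, 10.51, 9.89 and 9.86 in the same groups, and ASCC1 was not on the array. Between M3-2 and M3-1, ANAPC16 and DDIT4 had limma adjusted p-values of 0.197 and 0.174. Beside EFEMP1, PNPT1 lay between 13.63 and 14.08 and CCDC85A between 6.52 and 7.24. Beside SPOCK1, TRPC7 stayed below background and KLHL3 lay between 7.09 and 7.51. Beside FBLN1, RIBC2 reached no more than 7.04 and ATXN10 lay between 7.70 and 8.07. Beside BGN, HAUS7 lay between 9.77 and 10.08 and ATP2B3 stayed below background.

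Among the 5 bone-forming cell markers, ALPL, which encodes tissue-nonspecific alkaline phosphatase, averaged 7.49 in M3-2, 8.17 in M3-1, 8.42 in PT and 9.25 in parental cells. BGLAP averaged 6.77, 6.85, 6.81 and 6.71 in the same groups, and RUNX2 6.53, 6.45, 6.42 and 6.47. IBSP was above background on 1 array and SP7 on 0. ALPL was the list's only called gene in each of the 4 comparisons. Over all genes 2.06% were called between M3-2 and M3-1. Against parental cells the shares were 11.1% in M3-2, 8.92% in M3-1 and 5.98% in PT.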
